A study of Mus musculus with 10 samples.

Results

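Transcript levels of 8 genes of cholesterol synthesis were examined in the uterus of HSD17B1TG and WT mice. Hmgcs1, Idi1, Fdps, Fdft1, Sqle, Lss and Cyp51 encode enzymes of the pathway and Srebf2 encodes the transcription factor SREBP2 that controls it. The 8 genes were taken by their symbols from a table of 29268 genes, and all 8 were found in it and passed the filter on low counts. None of them encodes a cholesterol uptake protein, and uptake genes were read from a separate list. The study sequenced RNA of 10 uteri from mice of the FVB/N strain at the age of 4 months, 5 from HSD17B1TG mice and 5 from WT mice, with 1 library per mouse. HSD17B1TG mice carry human HSD17B1, the enzyme that converts estrone to estradiol, as a cDNA under a universal promoter (a cytomegalovirus enhancer joined to the chicken beta actin promoter), so that the transgene is not limited to the uterus. They do not cycle, whereas the WT uteri were collected at random phases of the estrous cycle, so genotype and lack of cycling cannot be told apart here. The mice are called TG1 to TG5 and WT1 to WT5 below, in the order of the labels, and the numbers pair no animals.

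Cells make cholesterol from acetyl-CoA through mevalonate, isoprenoid diphosphates, squalene and lanosterol. When sterols in the endoplasmic reticulum are low, SREBP2 is carried to the Golgi by SCAP, cut by proteases, and enters the nucleus, where it binds sterol regulatory elements (SREs) in the promoters of synthesis and uptake genes, Srebf2 itself included. When sterols are plentiful, INSIG proteins keep SREBP2 in the endoplasmic reticulum, and the oxysterol-activated LXR receptors turn on efflux genes such as Abca1. In the uterus, estrogen drives waves of epithelial growth, and dividing cells need sterols for new membranes.

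The promoters of 4 of the genes are shown, since these letters are where SREBP2 and its partner factor NF-Y are known to act. The sequences are RefSeq promoters of the build GRCm38.p6, cut to the bases upstream of both the RefSeq and the Ensembl start of the gene. They run 5′ to 3′ along the gene, and capitals mark the SRE core TCACCNCA and the CCAAT box, which reads ATTGG where it lies on the other strand.
Hmgcs1 (chr13:119690101-119690350, plus strand): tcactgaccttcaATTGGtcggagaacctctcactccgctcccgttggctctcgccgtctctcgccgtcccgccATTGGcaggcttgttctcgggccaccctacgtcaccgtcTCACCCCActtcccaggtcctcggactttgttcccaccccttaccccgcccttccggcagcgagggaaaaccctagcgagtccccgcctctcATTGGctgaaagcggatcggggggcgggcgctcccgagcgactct
Srebf2 (chr15:82147019-82147180, plus strand): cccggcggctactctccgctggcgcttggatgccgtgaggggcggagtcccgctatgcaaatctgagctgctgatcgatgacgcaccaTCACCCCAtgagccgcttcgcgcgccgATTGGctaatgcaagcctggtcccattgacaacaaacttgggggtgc
Cyp51 (chr5:4104747-4104947, minus strand): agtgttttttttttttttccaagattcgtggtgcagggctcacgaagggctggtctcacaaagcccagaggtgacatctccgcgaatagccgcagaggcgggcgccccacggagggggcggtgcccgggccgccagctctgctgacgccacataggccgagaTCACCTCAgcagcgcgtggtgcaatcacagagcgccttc
Lss (chr10:76531355-76531587, plus strand): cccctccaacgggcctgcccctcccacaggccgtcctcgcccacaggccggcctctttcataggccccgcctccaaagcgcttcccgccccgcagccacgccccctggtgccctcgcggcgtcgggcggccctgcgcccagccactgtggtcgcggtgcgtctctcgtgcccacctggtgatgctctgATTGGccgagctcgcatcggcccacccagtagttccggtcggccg
RefSeq promoter windows, from 250 bases before the start site to 50 after it, were at hand for 5 of the 8 genes, these and Idi1. The SRE core was found in 3 of the 5, with its first base at -137 in Hmgcs1, -162 in Srebf2 and -88 in Cyp51, and in 4.42% of all 32851 promoters searched on both strands. It was found in 1 of 11 promoters of other synthesis enzymes. A longer SRE of 10 letters that holds the core was found in 0 of the 5 and 0 of the 11 (0.0913% of all promoters). The CCAAT box was found in 5 of 5 (37.4% of all promoters) and the GC box GGGCGG in 5 of 5 (35.7%). The core was chosen with these sequences in view, no matches in these 5 promoters overlapped one another, and a match describes letters only.

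The libraries held 14817228 to 23271988 counts, and total counts did not separate the genotypes (two-sided exact permutation test, p = 0.698). The mitochondrial share was 5.74%, 1.94%, 2.49%, 6.87% and 7.57% of counts in TG1 to TG5 and lay between 2.58% and 3.37% in the WT mice (exact permutation p = 0.167). Markers of uterine stroma, smooth muscle and epithelium were all detected in the table. Summed FPKM of the 9 smooth muscle markers ranged from 878.1 to 7420 in HSD17B1TG and from 424.9 to 5822 in WT mice. The 8 stromal markers summed to 380.7 to 1333 in HSD17B1TG and 1570 to 2035 in WT mice. Of the 8, 6 were lower at an adjusted p under 0.05 in edgeR, against 2.81% of all genes. Of the other marker lists, macrophages (Cd68, higher), leucocytes (Laptm5, higher) and steroidogenic ovary (Foxl2, lower) each had 1 gene at that limit (6.16% of all genes). The other 5 of the 6 leucocyte markers were lower, and the median log2 fold change of that list was -0.72. Of the 8 ovary markers 3 were tested, with a median of -0.04, and Star was higher (0.88). Epithelium, smooth muscle, endothelium, neutrophils, adipocytes, oviduct and proliferation had 9, 9, 7, 3, 1, 3 and 8 tested genes. In edgeR 0 of them passed, with 7, 0, 4, 1, 1, 1 and 0 at an unadjusted p under 0.05 (26.1% of all genes). At an adjusted p under 0.05 limma voom gave 0 in these 7 lists too (4.87% of all genes). DESeq2 gave 3, 0, 1, 1, 1, 1 and 0 (13.9% of its genes). FPKM is fragments scaled to library size and to the gene length given with the data. That length can exceed the transcript, as for Fdps (4208 bases against 1382 in its longest coding transcript). Levels of different genes are therefore only roughly comparable. In a whole uterus, fewer cells of a type and less RNA per cell cannot be told apart.

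None of the 8 genes passed the test for a difference between HSD17B1TG and WT uteri. At an adjusted p under 0.05 in edgeR's quasi-likelihood test, 0 of 8 genes passed, against 6.16% of the 16993 genes tested (3.34% higher and 2.81% lower in HSD17B1TG). With the added limits of a fold over 2 and a mean FPKM over 1, 0 of 8 passed, against 4.24% of all genes (2.16% higher and 2.08% lower). At an unadjusted p under 0.05 the count was also 0 of 8, against 26.1% of all genes, and DESeq2 (13.9% of its genes at an adjusted p under 0.05) and limma voom (4.87%) likewise gave 0 of 8 at adjusted and at unadjusted p. Fitted log2 fold changes, HSD17B1TG minus WT, ranged from -0.18 for Srebf2 to 0.26 for Fdft1, with 2 genes higher and 6 lower and a median of -0.04, beside a median of 0.00 over all genes. FPKM values of the genotypes overlapped for all 8 genes, while 6.69% of all genes had groups that did not overlap. The 95% intervals given below were wide, and differences inside them are not excluded by the data of these mice. What the uteri did show was a large spread between mice of the same genotype, shared by the 8 genes, with TG3 at the top of every gene.

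**Figure D1:**
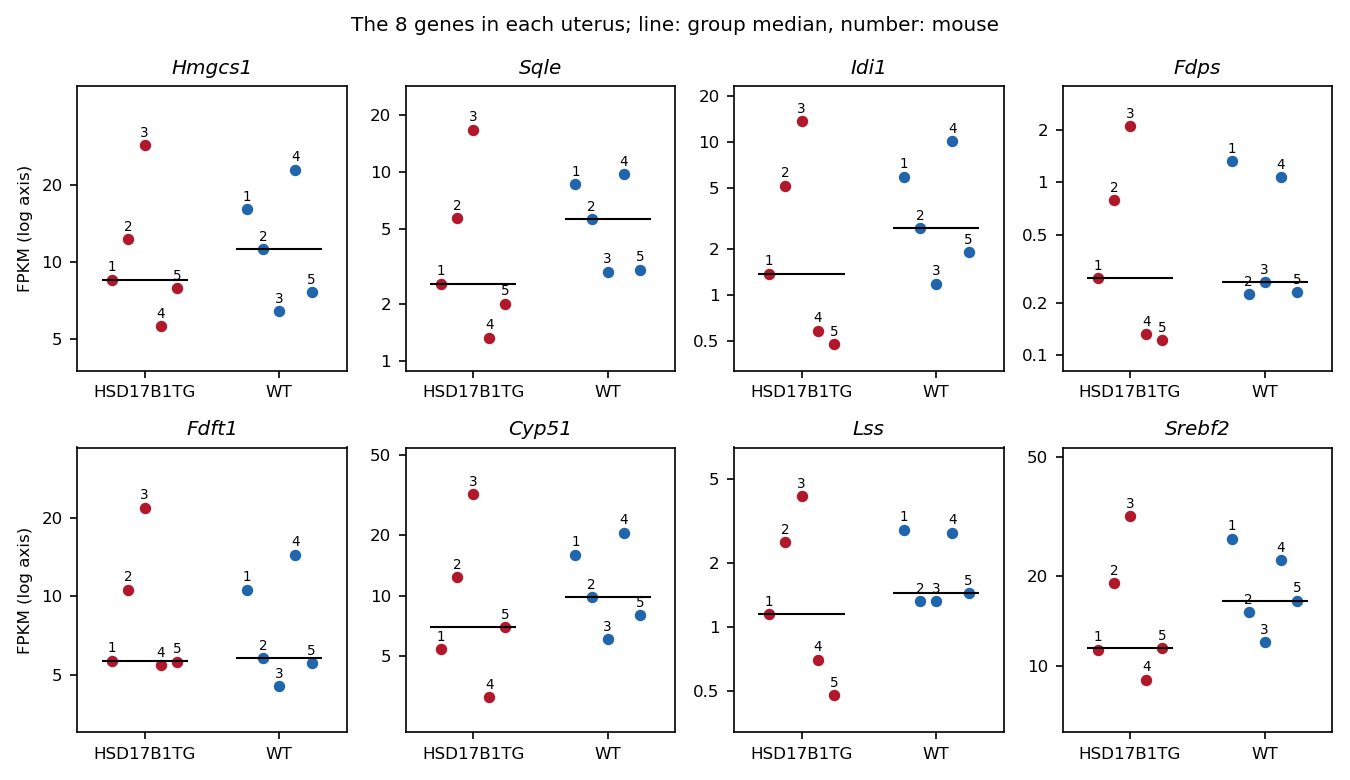
FPKM of the 8 genes on log axes, 1 point per mouse, numbered within HSD17B1TG (red) and WT (blue), with the group median as a line. The groups overlap in all 8 panels, TG3 is the highest point of every panel, and WT1 and WT4 are the 2 highest WT mice.

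Hmgcs1 encodes cytosolic HMG-CoA synthase, which makes HMG-CoA on the way to mevalonate, and lies at chr13:119690379-119708260 on the plus strand (GRCm38). Its FPKM was 8.51, 12.3, 28.6, 5.62 and 7.87 in TG1 to TG5 and 16.0, 11.2, 6.41, 22.9 and 7.61 in WT1 to WT5. TG3 lay above all WT mice and TG4 below them, and the other HSD17B1TG mice fell inside the WT range. Mean FPKM was 12.6 ± 9.29 (SD, n = 5) in HSD17B1TG and 12.8 ± 6.77 in WT mice. The log2 fold change was -0.04 (SE 0.47, 95% interval -1.07 to 1.00, edgeR adjusted p = 0.972).

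Idi1 encodes isopentenyl diphosphate isomerase, which interconverts the building blocks of all isoprenoids, and lies at chr13:8885501-8892451 on the plus strand. Its FPKM was 1.38, 5.18, 13.7, 0.584 and 0.477 in TG1 to TG5 and 5.94, 2.72, 1.19, 10.1 and 1.89 in WT1 to WT5. The HSD17B1TG mice sat on either side of the WT mice, since TG3 was above the highest WT mouse and TG4 and TG5 were below the lowest. The highest HSD17B1TG value was 28.7 times the lowest, the widest range among the 8 genes, against 8.52 times within WT. Its log2 fold change was -0.04 (SE 0.91, 95% interval -2.05 to 1.96, edgeR adjusted p = 0.983). A processed pseudogene, Gm13502, matches Idi1 over 684 bases at 100% identity. It received 46 counts over all mice against 2995 for Idi1, and how the authors' counting treated shared reads is not given in the sources used here.

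Fdps encodes farnesyl diphosphate synthase, whose product is the branch point toward sterols, prenylated proteins, dolichol and ubiquinone, and lies at chr3:89093588-89101959 on the minus strand. Its FPKM was 0.280, 0.792, 2.12, 0.133 and 0.122 in TG1 to TG5 and 1.32, 0.225, 0.265, 1.07 and 0.232 in WT1 to WT5. TG3 was again above every WT mouse, and TG4 and TG5 were below every WT mouse. These levels rest on few counts, 8 in TG5 (exact Poisson 95% interval 3.45 to 15.8, counting error only) and 168 in TG3. The log2 fold change was 0.14 (SE 0.84, 95% interval -1.72 to 1.999, edgeR adjusted p = 0.936). The level of Fdps is uncertain because the gene shares sequence with others. The processed pseudogene Gm3571 matches it over 1062 bases at 98.9% identity and received 630 counts over the 10 mice, against 551 for Fdps itself. The gene model Gm43738 overlaps 7512 bases of the Fdps locus on the same strand and received 9 counts.

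Fdft1 encodes squalene synthase, the first enzyme that commits farnesyl diphosphate to sterols, and lies at chr14:63145150-63179578 on the minus strand. Its FPKM was 5.66, 10.6, 21.8, 5.46 and 5.62 in TG1 to TG5 and 10.6, 5.79, 4.52, 14.4 and 5.54 in WT1 to WT5. No HSD17B1TG mouse was below the WT range, and TG3 alone was above it. The log2 fold change was 0.26 (SE 0.45, 95% interval -0.74 to 1.26, edgeR adjusted p = 0.761), the largest of the 8. Its 3′ end overlaps 774 bases of Ctsb on the opposite strand, a gene with 218965 counts against 7315 for Fdft1, and the strand setting of the counting is not given in the sources used here.

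Sqle encodes squalene epoxidase, a rate-limiting oxygen-dependent step of the sterol branch, and lies at chr15:59315077-59331192 on the plus strand. Its FPKM was 2.57, 5.72, 16.8, 1.33 and 2.02 in TG1 to TG5 and 8.65, 5.63, 2.97, 9.80 and 3.05 in WT1 to WT5. TG1, TG4 and TG5 lay below all WT mice, TG2 inside the WT range and TG3 above it. Within HSD17B1TG the values spanned 12.6-fold and within WT 3.29-fold. HSD17B1TG and WT differed by a log2 fold change of -0.09 (SE 0.66, 95% interval -1.54 to 1.36, edgeR adjusted p = 0.948). No other gene or transcript of the annotation was found to overlap or resemble Sqle.

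Lss encodes lanosterol synthase, which closes the sterol rings, and lies at chr10:76531588-76557138 on the plus strand. Its FPKM was 1.15, 2.52, 4.14, 0.701 and 0.477 in TG1 to TG5 and 2.88, 1.33, 1.32, 2.79 and 1.44 in WT1 to WT5. As for Sqle, 3 HSD17B1TG mice were below every WT mouse and TG3 was above them all. For Lss the log2 fold change was -0.13 (SE 0.54, 95% interval -1.32 to 1.07, edgeR adjusted p = 0.908).

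Cyp51 encodes lanosterol 14 alpha-demethylase, the cytochrome P450 that starts the conversion of lanosterol to cholesterol, and lies at chr5:4081145-4104746 on the minus strand. Its FPKM was 5.43, 12.3, 31.9, 3.15 and 6.97 in TG1 to TG5 and 16.0, 9.81, 6.08, 20.6 and 7.98 in WT1 to WT5. TG1 and TG4 were below the WT range and TG3 was above it. The mean of 11.96 ± 11.7 (SD, n = 5) in HSD17B1TG was near the 12.1 ± 6.02 of WT mice, with a log2 fold change of -0.02 (SE 0.58, 95% interval -1.29 to 1.25, edgeR adjusted p = 0.986).

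Srebf2, the gene of SREBP2, lies at chr15:82147181-82205379 on the plus strand and hosts the microRNA gene Mir33, known to repress Abca1. Its FPKM was 11.3, 19.0, 31.6, 8.99 and 11.5 in TG1 to TG5 and 26.6, 15.2, 11.99, 22.6 and 16.5 in WT1 to WT5. TG1, TG4 and TG5 were below all WT mice, TG4 the furthest, and TG3 was the highest mouse, and the values spanned 3.52-fold within HSD17B1TG and 2.22-fold within WT, less than for any enzyme but Lss within WT. The log2 fold change was -0.18 (SE 0.35, 95% interval -0.94 to 0.58, edgeR adjusted p = 0.785), the narrowest interval of the 8.

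By mean FPKM over the 10 mice the order was Srebf2 (17.5 ± 7.42 SD), Hmgcs1 (12.7 ± 7.66), Cyp51 (12.02 ± 8.75), Fdft1 (9.002 ± 5.54), Sqle (5.85 ± 4.78), Idi1 (4.32 ± 4.48), Lss (1.87 ± 1.16) and Fdps (0.657 ± 0.667). Every neighbouring pair differed by less than the SD between mice of the higher gene, except Lss and Fdps, whose difference exceeded it slightly. Within mice the order was steadier. Srebf2 was above Hmgcs1 in 9 of 10 mice and Fdft1 above Sqle in 10 of 10, while Hmgcs1 was above Cyp51 in 7 of 10. The order depends on the gene lengths behind FPKM, which exceed the longest coding transcripts unevenly. The lengths were 5546 against 2758 bases for Sqle and 4227 against 3698 for Fdft1.

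The direction of the 8 genes turned with the mice left out, but none passed the test in either case. Without TG3, all 8 log2 fold changes were negative, from -1.21 for Idi1 to -0.28 for Fdft1, with edgeR adjusted p from 0.197 to 0.663. TG1, TG4 and TG5, the 3 mice with the lowest mean of the 8 genes among HSD17B1TG, were also the 3 with a mitochondrial share over 5%. Without those 3 mice, all 8 log2 fold changes were positive, from 0.44 for Srebf2 to 1.22 for Fdps, with adjusted p from 0.271 to 0.492, and 5 of all genes met the full rule in that fit. The part of the mitochondrial share in these levels was not tested.

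**Figure D2:**
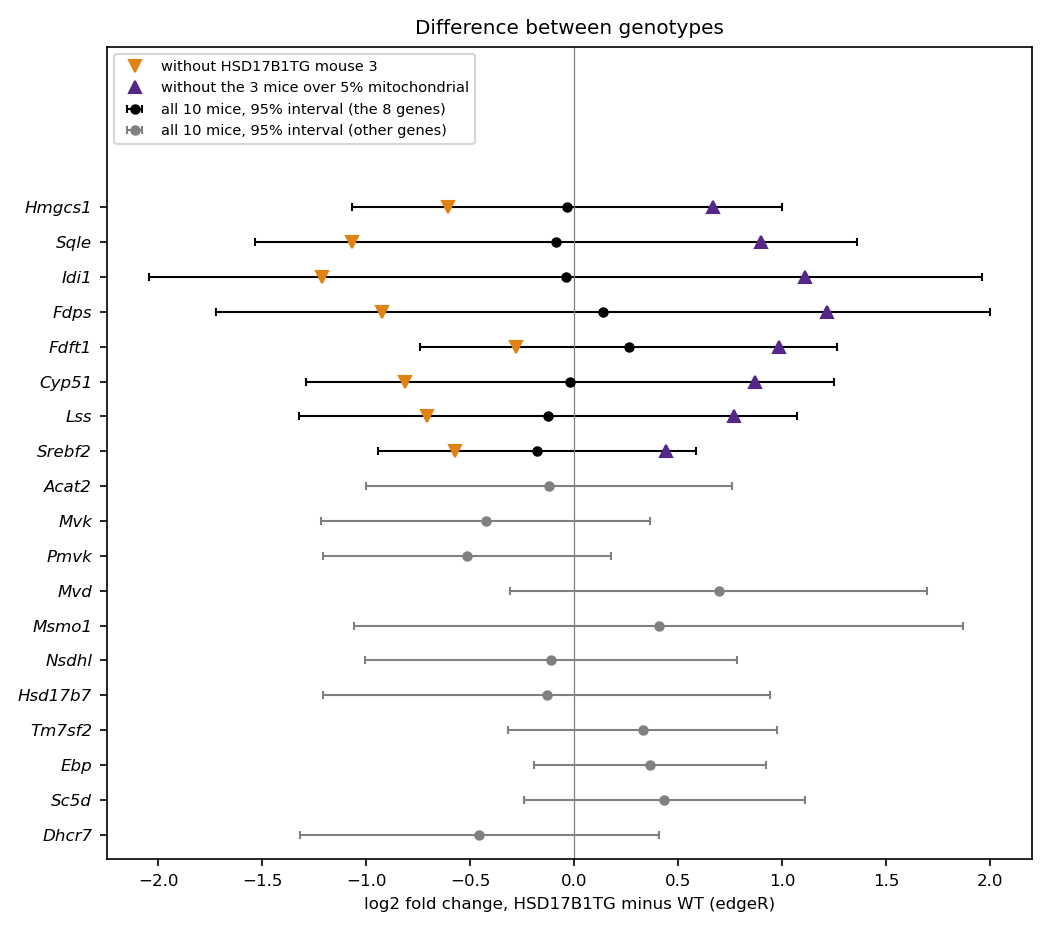
Log2 fold change, HSD17B1TG minus WT, with its 95% interval from edgeR for the 8 genes (black) and for 11 other synthesis enzymes (grey). Every interval contains 0, and for the 8 genes the values without TG3 (orange) lie below 0 and those without the 3 mice of over 5% mitochondrial counts (purple) lie above 0.

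The 8 genes varied together from mouse to mouse. As log2 CPM (counts scaled to library size) minus each gene's mean over the 10 mice, the mean of the 8 genes was -0.61, 0.52, 1.67, -1.29 and -1.08 in TG1 to TG5 and 0.87, -0.13, -0.63, 1.08 and -0.39 in WT1 to WT5. TG3 was the highest mouse for 8 of 8 genes, and WT4 was in the top 3 for 8 of 8 and WT1 for 7. At the low end, TG4 was in the bottom 3 for 8 of 8 genes and was the lowest mouse for 4, TG5 for 3 and WT3 for 1. High and low mice occurred in both genotypes. Over the 28 pairs of the 8 genes, Pearson's r across the 10 mice ranged from 0.83 to 0.97 with a median of 0.93, and Spearman's rho from 0.68 to 0.98. Without TG3 and WT4, the 2 mice farthest from the median, r ranged from 0.72 to 0.96. After each gene was centred on its genotype mean, r ranged from 0.85 to 0.97, and 0.844% of all gene pairs had an r at or above that lowest value. The points of these correlations share a library and its depth, and they are given as a description.

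**Figure D3:**
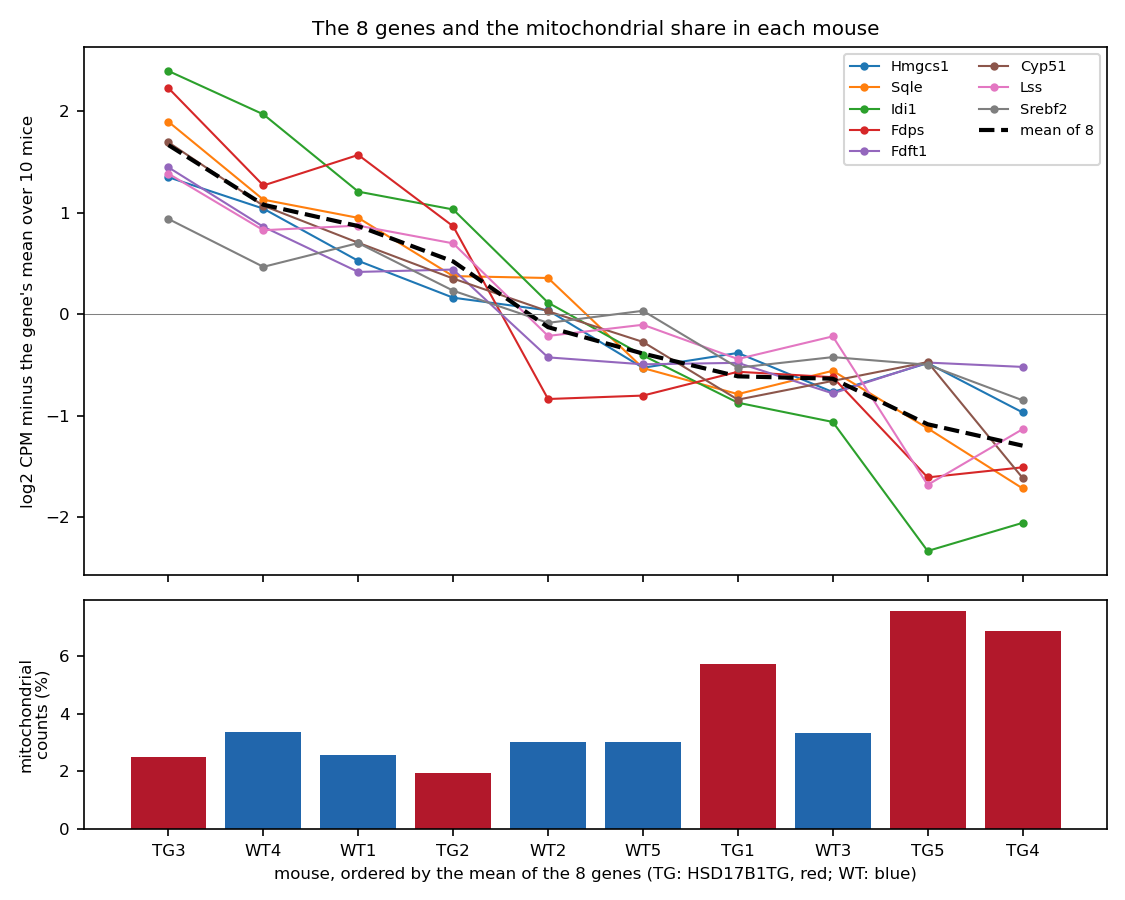
Upper panel, log2 CPM of the 8 genes minus each gene's mean over 10 mice, with mice ordered by the mean of the 8 (dashed). Lower panel, mitochondrial share of counts in percent (HSD17B1TG red, WT blue). The 8 lines fall together from TG3 to TG4, and 3 of the 4 mice at the low end are the mice with a share over 5%.

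The spread between mice was wider for these genes than for most. The SD of log2 CPM within genotype was 1.68 for Idi1, 1.44 for Fdps, 1.16 for Sqle, 1.02 for Cyp51, 0.98 for Lss, 0.82 for Hmgcs1, 0.78 for Fdft1 and 0.60 for Srebf2. The median over the 8 was 1.00, against 0.44 over all genes tested and 0.67 over 13 other cholesterol synthesis enzymes. Idi1 exceeded 98.2% of all genes in this SD and Srebf2 exceeded 64.3%. Within HSD17B1TG the median SD of the 8 genes was 1.27 and within WT 0.72. The SD was larger in HSD17B1TG for 8 of 8 genes, and for 59.0% of all genes. Without TG3 it was larger in HSD17B1TG for 5 of 8, near the 54.5% of all genes.

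**Figure D4:**
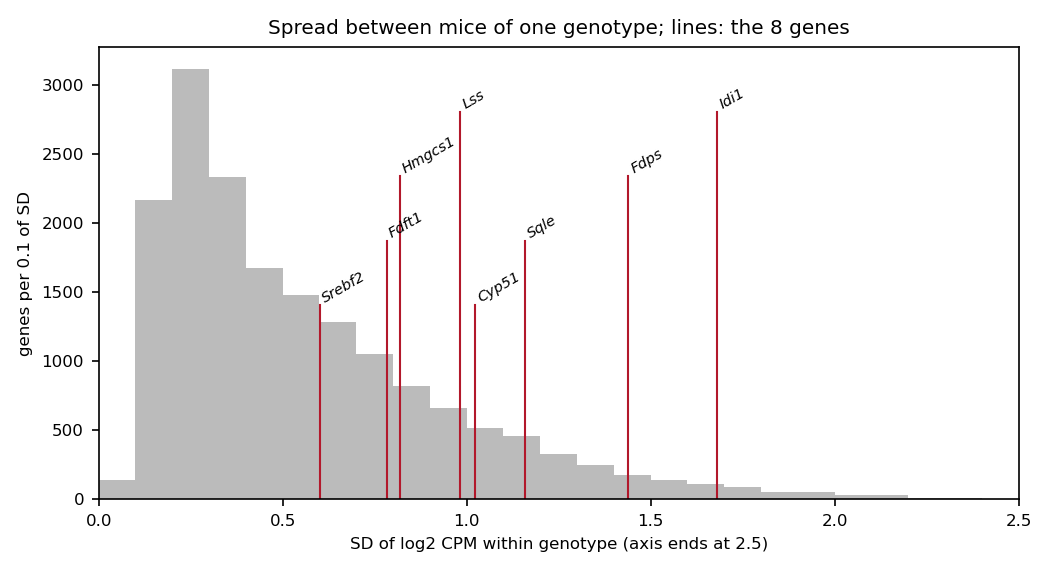
Histogram of the SD of log2 CPM within genotype over all genes tested, with red lines at the values of the 8 genes. Srebf2, at 0.60, is the nearest to the bulk of the genes and Idi1, at 1.68, is the farthest.

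None of 13 other enzymes of cholesterol synthesis passed the test either. Of the 13, 7 were higher and 6 lower in HSD17B1TG. In edgeR 0 passed an adjusted p under 0.05 (6.16% of all genes) or an unadjusted p under 0.05 (26.1%). At an adjusted p under 0.05, 0 passed in DESeq2 (13.9% of its genes) or limma voom (4.87%). The median log2 fold change was 0.24. Without TG3 the median turned to -0.34, and without the 3 mice of over 5% mitochondrial counts it was 0.69. Without TG3, 1 of the 13 passed an adjusted p under 0.05 in edgeR, Pmvk (log2 fold change -0.93, SE 0.21, adjusted p = 0.0322). With all mice, among the smallest p were those of Pmvk, phosphomevalonate kinase (log2 fold change -0.52, SE 0.31, adjusted p = 0.326), and Mvd, which makes isopentenyl diphosphate (0.69, SE 0.45, adjusted p = 0.364). The mean of the 13 enzymes followed the mean of the 8 genes across mice (r = 0.92, rho = 0.82, and r = 0.81 without TG3 and WT4). Msmo1, the sterol 4-methyl oxidase that acts after Cyp51, was the gene most like the 8 among all other genes, with an r of 0.97 after centring on genotype.

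Of 14 tested genes of cholesterol uptake and intracellular transport, 1 rose and 1 fell in HSD17B1TG at an adjusted p under 0.05 in edgeR, against 6.16% of all genes in either direction. DESeq2 gave 3 of the 14 (13.9% of all its genes), and limma voom (4.87%) and limma on log2(FPKM + 1) gave 0. Stard3, which encodes a cholesterol transfer protein of late endosomes, rose (log2 fold change 1.08, SE 0.27, adjusted p = 0.0445). Its median was 9.10 FPKM in WT and 24.5 in HSD17B1TG mice, with TG1 (10.4) inside the WT range of 7.41 to 14.9. Lrp2, the endocytic receptor megalin, fell (-4.82, SE 1.07, adjusted p = 0.0336). Its FPKM lay between 0.0573 and 0.392 in HSD17B1TG and between 0.618 and 4.13 in 4 WT mice, with 21.7 in WT3. Without WT3 its log2 fold change was -3.35 with an adjusted p of 0.0578. Mylip, a ubiquitin ligase induced by LXR, had a log2 fold change of 1.06 (SE 0.32) that missed the threshold (adjusted p = 0.0660).

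Among 12 genes that control SREBP processing, 0 passed an adjusted p under 0.05 in edgeR and in limma voom, 5 had an unadjusted p under 0.05 (26.1% of all genes), and DESeq2 gave 3 at an adjusted p under 0.05 (13.9% of all genes). Among the smallest p were those of Mbtps1, the site-1 protease that cuts SREBPs (log2 fold change -0.49, SE 0.14, adjusted p = 0.0554) and Rnf145, a ubiquitin ligase of SCAP (0.40, SE 0.12, adjusted p = 0.0739). Insig1, a known SREBP target that retains the SCAP complex, followed the 8 genes across mice (r = 0.82, rho = 0.70, and r = 0.77 without TG3 and WT4) and had a log2 fold change of 0.33 (SE 0.39, adjusted p = 0.636).

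The efflux genes Abca1 and Abcg1 ran against the 8 genes from mouse to mouse, while the list they come from was mixed, with r after centring on genotype from -0.96 for Abca1 to 0.59 for Lpcat3 over its 6 tested genes. Abca1, the cholesterol efflux pump, had 15.2, 5.43, 3.04, 24.7 and 17.1 FPKM in TG1 to TG5 and 7.28, 12.5, 11.8, 6.94 and 16.3 in WT1 to WT5. Its lowest mouse was TG3 and its highest TG4, the reverse of the 8 genes, and TG2, WT4 and WT1 were its next lowest mice. Pearson's r of Abca1 with the mean of the 8 was -0.94 and rho -0.88, with an r of -0.91 without TG3 and WT4. Abcg1, a second efflux pump, gave an r of -0.85 and a rho of -0.87. Neither passed the test between genotypes (log2 fold change 0.25, SE 0.50, adjusted p = 0.795 for Abca1, and 0.64, SE 0.54, adjusted p = 0.487 for Abcg1). Of the 6 tested genes of this list 0 passed in edgeR and in limma voom, 1 had an unadjusted p under 0.05 (26.1% of all genes), and DESeq2 gave 1 (13.9%). That gene was Nr1h2, which encodes LXR beta (0.41, SE 0.13, adjusted p = 0.0773 in edgeR). Nr1h3, which encodes LXR alpha, had a log2 fold change of -0.51 (SE 0.37, adjusted p = 0.423).

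**Figure D5:**
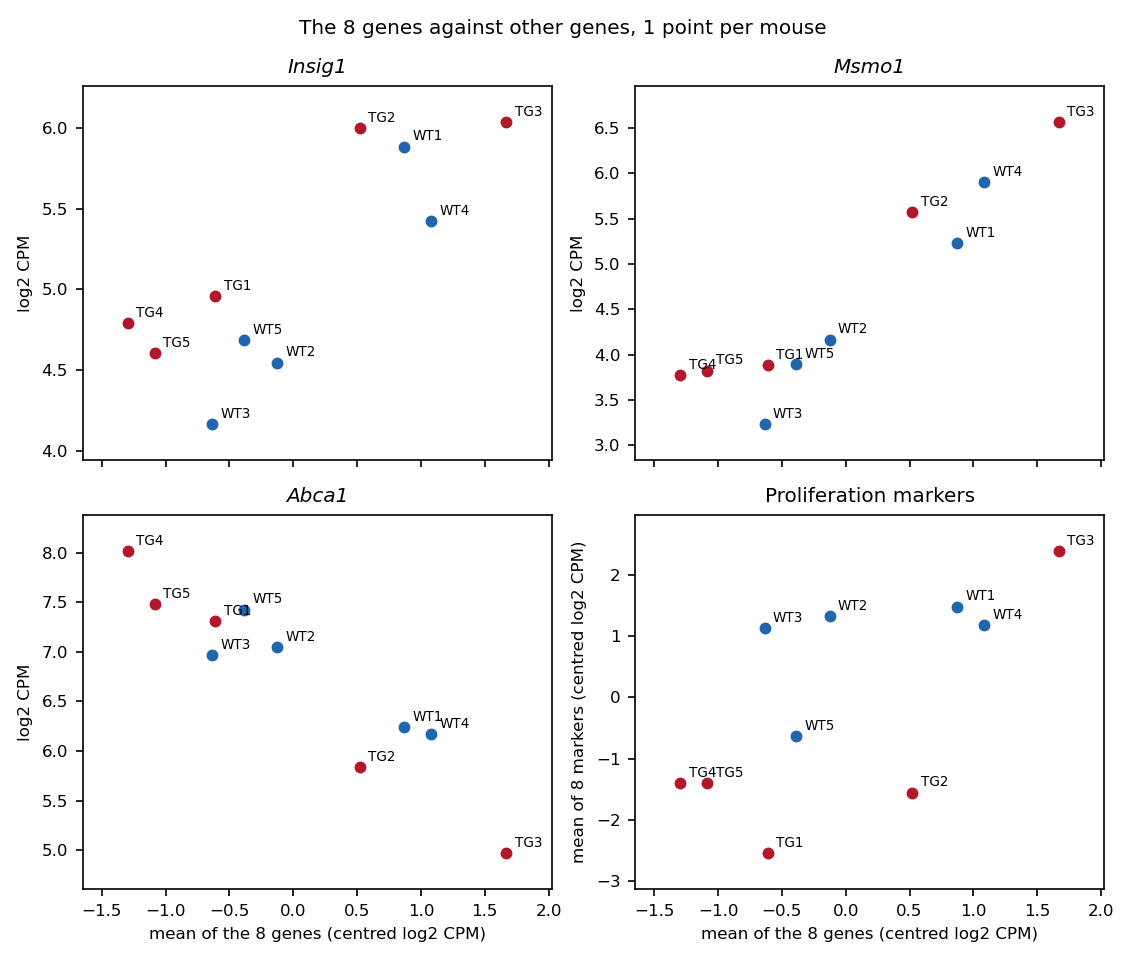
Log2 CPM of Insig1, Msmo1 and Abca1, and the mean of 8 proliferation markers, against the mean of the 8 genes, 1 point per mouse (HSD17B1TG red, WT blue). Insig1 and Msmo1 rise along the axis and Abca1 falls, whereas proliferation markers are high in WT3 and WT2, where the 8 genes are low or near their mean.

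Of 9 genes of cholesterol esterification and oxysterol formation, 1 rose and 1 fell at the same limit in edgeR (6.16% of all genes). DESeq2 gave 4 of the 9 (13.9% of all its genes), and limma voom (4.87%) and limma on log2(FPKM + 1) gave 1 each. Soat1, which esterifies cholesterol for storage, fell (log2 fold change -1.40, SE 0.36, adjusted p = 0.0471), with 1.86 to 4.06 FPKM in HSD17B1TG and 4.00 to 13.2 in WT mice, and its adjusted p was 0.0646 in limma voom. Lipe, the hormone-sensitive lipase that also hydrolyses cholesterol esters, rose (1.92, SE 0.37, adjusted p = 0.0234), with 7.33 to 31.4 FPKM in HSD17B1TG and 2.69 to 5.26 in WT mice. Lipe is also an adipocyte gene, and the 6 adipocyte markers summed to 3.18 to 110.4 FPKM in HSD17B1TG and 0.233 to 22.5 in WT mice. The highest sum was that of TG4, which alone lay above all WT mice for Adipoq, Plin1, Cidec, Lep and Cfd. Lipe itself had 10.8, 18.8, 7.33, 12.2 and 31.4 FPKM in TG1 to TG5. The part of adipocytes in its level was not tested. Cyp27a1, a sterol 27-hydroxylase, had a log2 fold change of -1.60 (SE 0.46) and missed the threshold (adjusted p = 0.0628). Leaving out single mice ended the calls of these genes in many cases. With 1 mouse left out in turn, an adjusted p under 0.05 was found for Lipe in 4 of 10 fits, for Lrp2 in 3, and for Stard3 and Soat1 in 2.

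In the 12 genes of fatty acid synthesis, the program of the related factor SREBP1, 0 passed an adjusted p under 0.05 in edgeR and limma voom, 3 had an unadjusted p under 0.05 (26.1% of all genes), and DESeq2 gave 1 (13.9% of all genes). The smallest p belonged to Acss2, which makes acetyl-CoA from acetate (log2 fold change 1.00, SE 0.30, adjusted p = 0.0672), Elovl6 (-0.90, SE 0.35, adjusted p = 0.137) and Acaca (-0.70, SE 0.29, adjusted p = 0.154). In the 13 genes of the non-sterol branches of the mevalonate pathway, Rabggta, a subunit of Rab geranylgeranyl transferase, rose by 0.62 on the log2 scale (SE 0.16, adjusted p = 0.0498), under the fold limit of 2, as 1 of 13 against 6.16% of all genes. Its adjusted p was 0.0626 in limma voom and 0.0637 with upper-quartile scaling, and under 0.05 in 1 of 10 fits with a mouse left out. Nus1 (0.47, SE 0.18, adjusted p = 0.138), a part of the enzyme that makes dolichol precursors, and Fnta (0.27, SE 0.13, adjusted p = 0.225), the shared subunit of the prenyl transferases, followed.

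The other genes most like the set, by r of log2 CPM after centring on genotype over 10 mice, were Msmo1 (0.97), Ccnd3 (0.97), Aacs (0.97), Ppa1 (0.96), Ptbp1 (0.96), Tm9sf1 (0.96) and Gspt1 (0.96). Aacs makes acetoacetyl-CoA in the cytosol, the substrate of Hmgcs1, and Ccnd3 encodes cyclin D3. Of all other genes tested, 2.30% had an r over 0.8 with the mean of the set and 3.13% an r under -0.8. By list, 7 of 13 other synthesis enzymes were over 0.8, as were 2 of 14 uptake and transport genes, 2 of 12 SREBP control genes, 1 of 12 fatty acid synthesis genes and 0 of 6 LXR and efflux genes, of which 2 were under -0.8.

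Since stromal markers differed in level between the genotypes, marker lists were compared with the 8 genes after each was centred on its genotype mean, over the 10 mice. The mean of the epithelial markers then gave an r of 0.36 with the mean of the 8, smooth muscle 0.21, stroma -0.54, endothelium -0.51, leucocytes -0.58, neutrophils 0.35, macrophages -0.55, adipocytes -0.04, oviduct -0.15 and steroidogenic ovary -0.02. Without TG3 and WT4 the r was 0.18 for epithelium, -0.26 for stroma and -0.08 for leucocytes. Among WT1 to WT5, the epithelial mean (log2 CPM minus each gene's mean over 10 mice) was -0.09, -0.62, -1.25, 0.09 and -1.26, highest in WT4 and WT1 as for the 8 genes. The stromal mean was 0.51, 0.98, 1.25, 0.09 and 1.24 in the same mice, the reverse of their order in the 8 genes. Among TG1 to TG5, the epithelial mean was -0.84, 0.78, 0.94, 0.83 and 1.42, with TG4 and TG5 high although they were lowest in the 8 genes, and the stromal mean was -0.01, -0.87, -1.20, -0.67 and -1.34. With 5 mice per genotype no correlation within a genotype is given, and a difference between genotypes in these relations was not tested. Proliferation markers gave a centred r of 0.70 (rho = 0.55), falling to 0.25 without TG3 and WT4. TG3 had the highest mean of the proliferation markers, 2.40, while TG2, high in the 8 genes, had -1.56, and WT3, low in the 8 genes, had 1.14. The mitochondrial share gave a centred r of -0.78 (rho = -0.70, and -0.83 without TG3 and WT4) and log2 total counts an r of 0.54. Parts of proliferation, cell composition, depth and the mitochondrial share in the levels of the 8 genes were not tested.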

How the data were processed

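Uterine RNA of 5 HSD17B1TG and 5 WT mice was sequenced by the authors as paired-end reads on a NovaSeq6000 and mapped with HISAT2 2.0.5 to the mouse genome of Ensembl (GRCm38). The deposited table holds, per gene and mouse, the authors' raw read counts and the authors' FPKM values. Which program counted the reads, whether it used strand, and what it did with multi-mapped reads are not given in the sources used here. Columns of the authors' own DESeq2 comparison (fold changes and p-values) and lists of enriched terms were not used.

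Counts were tested with edgeR 4.0.16 (R 4.3.3; quasi-likelihood test, TMM factors, filterByExpr, no covariate, Benjamini-Hochberg adjustment over 16993 genes), and 95% intervals came from its SE and degrees of freedom. Log2 CPM used a prior count of 2. DESeq2 1.42.0, limma 3.58.1 (voom, and on log2(FPKM + 1)), other scalings and filters, and fits with mice left out were the alternatives. The script was tested on simulated counts. Library measures were compared by a two-sided exact permutation test over 252 assignments. No pair of libraries of a group agreed within sampling noise (chi-square per gene at least 56.5).

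The 8 genes, the other pathway lists and the markers were chosen with earlier results of these data known. Named genes were all 8, from each list the genes at an adjusted p under 0.05 and the 3 with the smallest p, and the 8 genes most correlated with the set. Insig1 and Abca1 were chosen after their values were seen. Some results under this rule are not reported here. Of the listed genes, 3 (Idi2, Mmp8 and Sec14l3) were not matched in the table, and Abcg5, Abcg8 and Apoa1 were among those under the filter. Similar genes were searched in GENCODE transcripts (at least 90% identity over 150 bases). Promoters came from RefSeq.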

Additional observations from a re-analysis of the deposited data

Results flagged for a closer look

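The 8 genes and the named pathway genes gave 58 groups of 5 mice, each genotype apart, in FPKM. Of these, 6 held a mouse whose distance from its nearest neighbour exceeded Dixon's 95% limit for 5 samples (0.71 of the group's range). The 5% that chance gives at this limit holds for independent, normally distributed values. FPKM was not put on a log scale, the 8 genes vary together, and pathway genes were named by their p. The 5% is therefore no chance rate for these groups. TG3 stood apart for Hmgcs1 (28.6 FPKM, others 5.62 to 12.3, barely past the limit at 0.7102), for Sqle (16.8, others 1.33 to 5.72) and for Pmvk (16.2, others 5.54 to 7.39). WT3 stood apart for Lrp2 (21.7, others 0.618 to 4.13), WT2 for Rnf145 (10.5, others 8.27 to 8.79) and WT4 for Nus1 (29.4, others 18.0 to 20.7). TG3 is also the mouse with the highest proliferation markers, and its part in these values was not tested.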

How the results depend on the processing

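None of the 8 genes was called under any alternative, and their adjusted p was 0.197 or higher in all 144 fits of single genes. The direction was less settled. Of those 144 fits, 38 had the opposite sign to the value reported. Leaving out each mouse in turn, log2 fold changes ran from -0.60 to 0.28 for Hmgcs1, from -1.07 to 0.16 for Sqle, from -1.21 to 0.53 for Idi1, from -0.92 to 0.59 for Fdps, from -0.28 to 0.56 for Fdft1, from -0.82 to 0.25 for Cyp51, from -0.71 to 0.12 for Lss and from -0.57 to -0.02 for Srebf2. Without TG1, TG4 and TG5, an alternative chosen after seeing the data that leaves 2 HSD17B1TG mice, the sign turned for Hmgcs1 (0.67), Sqle (0.90), Idi1 (1.11), Cyp51 (0.87), Lss (0.77) and Srebf2 (0.44). Fdps turned to -0.27 in limma voom and to -0.0026 in limma on log2(FPKM + 1). Over all genes, 721 met the full rule, against 1597 in DESeq2, 5 without TG1, TG4 and TG5, and 65 (without TG5) to 1554 (without WT4) with a mouse left out in turn, and the cause was not tested. Stard3, Soat1, Lrp2, Lipe and Rabggta kept their direction in all 18 alternatives, and an adjusted p under 0.05 was found in 6, 7, 8, 11 and 5 of them, with adjusted p reaching 0.111, 0.131, 0.141, 0.1002 and 0.112. No paired analysis was possible because the replicate numbers follow accession order and pair no mice. Fdps rests on few counts, and 5 mice per genotype set the width of the intervals.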
